A study of Mus musculus with 12 samples.

Results

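The stimulation response of open chromatin was compared between Treg with and without Ikaros, as the genotype by treatment interaction in all 12 ATAC-seq libraries of the study. ATAC-seq reads out accessible DNA through the sites where Tn5 transposase inserts sequencing adapters. All 4 groups were CD4+ YFP+ Treg sorted from mice carrying Foxp3-YFP-Cre, in which the Foxp3 gene drives Cre recombinase and a yellow fluorescent reporter. WT libraries came from Foxp3-YFP-Cre mice with an intact Ikzf1 gene, and Ikzf1-cko libraries from Ikzf1-fl-Foxp3-YFP-Cre mice, in which Cre deletes a floxed Ikzf1 in Foxp3-expressing cells. Both genotypes were measured ex vivo and after 4 hr on plate-bound anti-CD3 and anti-CD28, with 3 libraries of 100000 cells in each of the 4 groups. Per the methods, sorted Treg were divided between stimulation and no stimulation, so libraries of both states in 1 genotype may come from the same sort. The methods call the replicates biological, but the age of these mice, the number of mice behind a library and the floxed exon are not given in the sources used here. Where libraries of a group do not come from separate mice, the p-values measure only the spread between libraries.

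The response of a region was its log2 fold change from ex vivo to stimulated Treg in 1 genotype, and the interaction was the response in Ikzf1-cko minus the response in WT. A positive interaction therefore means that a region gained more accessibility, or lost less, on stimulation of Ikzf1-cko Treg than of WT Treg. The same number equals the genotype difference (Ikzf1-cko minus WT) in stimulated Treg minus that ex vivo, so these 4 simple effects share libraries with the interaction and are given beside it as its parts. Of 118680 regions, the 34257 with at least 3.6 CPM (counts scaled to the library total) in all 12 libraries were tested. A region was called when its adjusted p was under 0.05 and the interaction exceeded 1 in either direction on the log2 scale, which are the thresholds of the study.

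Ikaros, encoded by Ikzf1, is a zinc finger protein of lymphocytes that binds GGGAA core sequences and recruits chromatin remodeling and deacetylase complexes. Treg are the CD4+ T cells that depend on the transcription factor Foxp3 and restrain other T cells. T cell receptor and CD28 signals activate AP-1, NFAT and NF-kB factors within minutes to hours, and these factors bind inducible elements that often lie far from gene start sites.

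Some of the called regions are shown first, by 300 bases around their centre in mm9, plus strand. They are examples of the sequence matches counted below and do not stand for all called regions. The first 4 regions had a positive interaction, lay in introns or between genes and held the AP-1 sequence TGANTCA, which is in capitals. They are 4 of the largest such interactions. The Etv6 region was not among the 12 largest positive interactions and was chosen after its value was seen.
Orc4 intron, chr2:48790685-48790984: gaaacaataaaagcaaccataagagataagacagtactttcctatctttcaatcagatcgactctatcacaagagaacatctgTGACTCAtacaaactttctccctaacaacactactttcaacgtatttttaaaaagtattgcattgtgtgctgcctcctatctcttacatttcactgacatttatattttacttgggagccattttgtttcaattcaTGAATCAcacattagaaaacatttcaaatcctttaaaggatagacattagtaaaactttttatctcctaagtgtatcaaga
Apbb1ip intron, chr2:22654860-22655159: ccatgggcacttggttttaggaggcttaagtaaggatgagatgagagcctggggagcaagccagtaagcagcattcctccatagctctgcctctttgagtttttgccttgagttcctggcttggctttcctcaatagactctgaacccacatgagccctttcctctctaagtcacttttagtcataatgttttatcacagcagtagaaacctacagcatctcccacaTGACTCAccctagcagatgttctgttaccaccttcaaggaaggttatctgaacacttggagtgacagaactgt
Intergenic, nearest start site Rgs13, chr1:146050135-146050434: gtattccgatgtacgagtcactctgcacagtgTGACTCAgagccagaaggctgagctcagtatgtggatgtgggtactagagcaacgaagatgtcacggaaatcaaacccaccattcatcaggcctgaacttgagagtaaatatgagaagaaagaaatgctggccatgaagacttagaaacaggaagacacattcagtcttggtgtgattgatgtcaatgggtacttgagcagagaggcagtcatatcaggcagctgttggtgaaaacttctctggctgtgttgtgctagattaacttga
Etv6 intron, chr6:134202089-134202388: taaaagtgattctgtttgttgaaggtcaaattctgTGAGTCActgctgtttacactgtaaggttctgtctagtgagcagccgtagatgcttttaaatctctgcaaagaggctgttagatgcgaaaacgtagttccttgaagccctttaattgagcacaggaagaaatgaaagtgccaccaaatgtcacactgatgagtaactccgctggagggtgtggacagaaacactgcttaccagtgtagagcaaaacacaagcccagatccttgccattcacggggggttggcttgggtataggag
The other 2 had negative interactions and were also called more accessible in Ikzf1-cko ex vivo. Neither held TGANTCA in this window, and capitals mark GGGAA or its complement TTCCC.
Intergenic, nearest start site Tnfsf11, chr14:78675487-78675786: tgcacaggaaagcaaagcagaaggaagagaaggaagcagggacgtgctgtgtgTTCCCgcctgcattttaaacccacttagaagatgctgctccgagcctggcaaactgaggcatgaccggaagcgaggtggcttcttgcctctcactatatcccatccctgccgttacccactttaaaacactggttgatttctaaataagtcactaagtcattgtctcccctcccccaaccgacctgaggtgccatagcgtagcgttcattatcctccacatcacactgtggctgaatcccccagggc
Cd82 intron, chr2:93296808-93297107: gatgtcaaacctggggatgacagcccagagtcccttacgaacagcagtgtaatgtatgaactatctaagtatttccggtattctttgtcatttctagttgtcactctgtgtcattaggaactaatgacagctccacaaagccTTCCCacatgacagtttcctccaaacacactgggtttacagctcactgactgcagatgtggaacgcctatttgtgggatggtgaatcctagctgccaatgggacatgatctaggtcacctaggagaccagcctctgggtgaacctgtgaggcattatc

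The response to stimulation differed between the genotypes at 266 of the 34257 tested regions (0.776% called). At 47 regions (0.137%) the interaction was positive and at 219 regions (0.639%) it was negative. Among the negative regions, 199 passed the adjusted p as opening in WT Treg and 58 as closing in Ikzf1-cko Treg. Their median response was 0.94 in WT and −0.23 in Ikzf1-cko on the log2 scale. The fitted response was above 0 in WT and below 0 in Ikzf1-cko at 176 of 219 regions, against 4701 of all 34257 tested regions. Among the positive regions, 33 passed as closing in WT and 30 as opening in Ikzf1-cko Treg, with median responses of −0.53 and 0.53. The fitted response was below 0 in WT and above 0 in Ikzf1-cko at 37 of 47 regions, against 4782 of all 34257 tested regions. In the WT response itself, 89 of the 219 negative regions were called as opening (1.23% of all tested regions) and 10 of the 47 positive regions as closing (1.05%), and in the Ikzf1-cko response 4 of the 47 were called as opening (0.292%) and 3 of the 219 as closing (0.444%). These responses are parts of the interaction that chose the regions and are given as a description. For the 4 simple effects, shares of all tested regions are given for calls with the fold threshold only, not for the adjusted p alone. Over all tested regions the median interaction was −0.01.

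**Figure D1:**
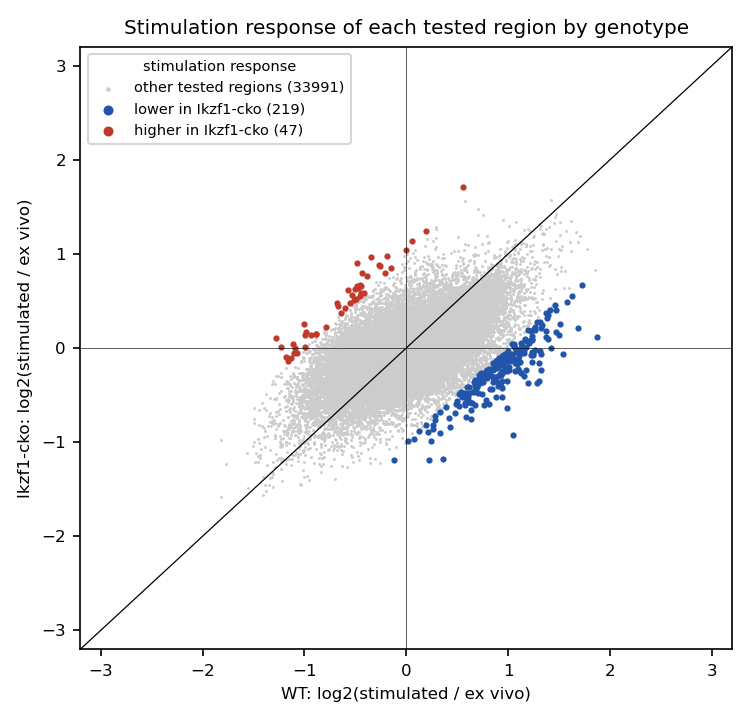
Stimulation response of each of the 34257 tested regions in WT (x axis) and in Ikzf1-cko (y axis), both as log2 of stimulated over ex vivo, where the diagonal marks equal responses. The 47 regions called with a positive interaction (red) lie above the diagonal, and the 219 with a negative one (blue) lie below it and mostly to the right of 0.

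By the adjusted p alone, with no threshold on the fold, 3183 regions passed (9.29%), and the balance was the other way, with 2027 positive (5.92%) and 1156 negative (3.37%) interactions. Of these, 47 of the 2027 positive and 219 of the 1156 negative ones also passed the threshold on the fold. Regions nearest to the fold threshold had interactions of 1.003 inside and 0.998 outside it on the positive side. In a fit of all regions with reads, the median interaction was 0.17 for the 2659 regions just inside the floor (lowest library from 3.6 to 4 CPM) and 0.13 for the 3139 just outside it (from 3.2 to 3.6 CPM).

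The split between directions depended on how the libraries were scaled. In stimulated WT Treg, 30.3% to 34.3% of the counted reads fell on the weaker regions that were not tested, against 19.2% to 23.2% in WT ex vivo, 16.3% to 19.1% in Ikzf1-cko ex vivo and 18.1% to 21.3% in stimulated Ikzf1-cko Treg. The values above are scaled by the trimmed mean of M values (TMM) over the tested regions, which leaves that difference out. With library totals as the scaling, the median interaction of all tested regions rose to 0.145 and the calls were 219 positive and 95 negative. The other scalings gave 71 positive and 176 negative calls (loess against abundance), 18 and 243 (loess on GC content), 41 and 168 (DESeq2), and 35 and 116 (quantile normalization with limma). Under all 5 of these, 67 of the 266 regions were called with the same sign, 14 positive and 53 negative. Interactions are given relative to the bulk of the tested regions, and the part that the share of reads on weak regions has in them was not tested. Single libraries also moved the number of calls. Leaving out Ikzf1-cko ex vivo replicate 3 gave 144 calls, and leaving out replicate 1 of WT ex vivo, of stimulated Ikzf1-cko or of Ikzf1-cko ex vivo gave 423, 463 and 471. Leaving out stimulated WT replicate 2 gave 508.

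**Figure D2:**
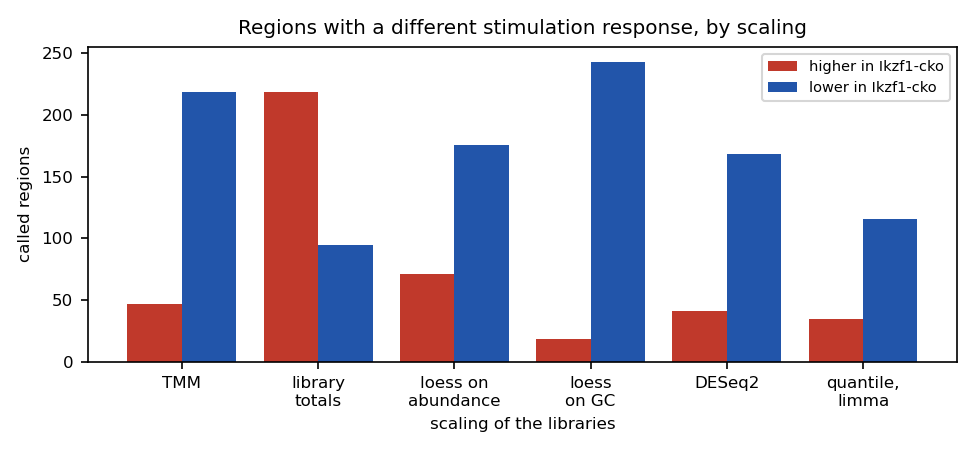
Number of regions called with a positive (red) or negative (blue) interaction under each of 6 scalings of the 12 libraries. Under library totals positive calls outnumbered negative ones (219 and 95), and under the 5 other scalings negative calls were more numerous.

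The depth was 5197669 to 8596567 reads counted on regions in WT ex vivo, 11698967 to 15355521 in Ikzf1-cko ex vivo, 4808916 to 6047073 in stimulated WT and 9221901 to 11465957 in stimulated Ikzf1-cko Treg, so WT values are less precise. Between libraries of 1 group, Spearman's correlation over regions was 0.943 to 0.986, and between groups it was 0.818 to 0.944. Regions at the start sites of all 7 Treg marker genes examined, Foxp3 and Il2ra among them, were present, and their summed level was 134 to 141 CPM in WT ex vivo and 138 to 165 in stimulated WT, against 148 to 157 and 150 to 162 in Ikzf1-cko.

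The largest positive interaction lay in an intron of 4933406I18Rik, 40.2 kb from the start site of Psma1, a proteasome subunit gene (chr7:121459881-121460376). Levels are given as TMM-scaled FPKM, counted reads scaled for region length and library size, by library. They were 40.5, 39.6 and 40.6 in WT ex vivo, 23.6, 37.4 and 25 in stimulated WT, 30.2, 26.6 and 21.6 in Ikzf1-cko ex vivo and 47, 49.3 and 51.8 in stimulated Ikzf1-cko Treg. All stimulated Ikzf1-cko libraries were above every other library, and the stimulated WT libraries were below all WT ex vivo libraries. The interaction was 1.39 ± 0.19 (log2, SE; edgeR quasi-likelihood test, Benjamini-Hochberg adjusted p = 4.23e-05), from a response of −0.48 in WT and 0.91 in Ikzf1-cko.

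An intron of Tnfaip8, a regulator of apoptosis and immune homeostasis, showed a different form of the same sign (chr18:50146287-50146894). Its level was 46.5, 43 and 49.9 in WT ex vivo, 18.6, 18.8 and 22.3 in stimulated WT, 53.3, 51.8 and 39.8 in Ikzf1-cko ex vivo and 46.7, 47.9 and 51.8 in stimulated Ikzf1-cko Treg. The stimulated WT libraries stood apart below all the others, which overlapped. The response was −1.24 in WT and 0.01 in Ikzf1-cko, and the interaction was 1.24 ± 0.17 (edgeR quasi-likelihood test, Benjamini-Hochberg adjusted p = 4.23e-05). A region in an intron of Slc39a10, which encodes a zinc importer, had the same form (chr1:46906668-46906966). There the response was −1.12 in WT and 0.04 in Ikzf1-cko (interaction 1.15 ± 0.16; edgeR quasi-likelihood test, Benjamini-Hochberg adjusted p = 7.06e-05).

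In an intron of Orc4, a gene of the origin recognition complex, the level was 22.9, 22.7 and 27 in WT ex vivo, 8.62, 12.4 and 9.01 in stimulated WT, 15.1, 14.1 and 12.6 in Ikzf1-cko ex vivo and 10.9, 16.1 and 17.8 in stimulated Ikzf1-cko Treg (chr2:48790485-48791184). The WT ex vivo libraries were the highest, and the stimulated libraries of the genotypes overlapped. The interaction was 1.39 ± 0.24 (edgeR quasi-likelihood test, Benjamini-Hochberg adjusted p = 0.000396), with a response of −1.28 in WT and 0.11 in Ikzf1-cko. Near Rgs13, a regulator of G protein signaling, the region was instead low in Ikzf1-cko ex vivo and gained accessibility on stimulation (chr1:146049921-146050648). It measured 25.5, 32.5 and 34.7 in WT ex vivo, 24.3, 28.2 and 25.7 in stimulated WT, 18, 14.7 and 12.4 in Ikzf1-cko ex vivo and 30.3, 25.2 and 28.8 in stimulated Ikzf1-cko Treg. Only the Ikzf1-cko ex vivo libraries stood apart, below the rest, and the interaction was 1.15 ± 0.18 (edgeR quasi-likelihood test, Benjamini-Hochberg adjusted p = 0.000179).

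Other regions among the 12 largest positive interactions were named by their nearest start site. They included an intron of Mbd2, which encodes a methyl-CpG binding protein (interaction 1.32), and an intergenic region 41.8 kb from Cblb, an E3 ubiquitin ligase that limits T cell receptor signaling (1.26). Also among them were an intergenic region 12.6 kb from Mad2l1, a spindle checkpoint gene (1.18), and introns of Yaf2 (1.17), of Apbb1ip, an adaptor of integrin activation (1.16), and of Klc1, a kinesin light chain (1.15). At Klc1 both genotypes opened, by 0.56 in WT and 1.71 in Ikzf1-cko. Adjusted p ranged from 4.23e-05 to 0.00223 over the 12 regions (edgeR quasi-likelihood test, Benjamini-Hochberg adjustment).

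Genes of costimulatory receptors had regions of this kind. ICOS, CD226 and CD28 are receptors that add to T cell receptor signals, and they were in a list of costimulatory and inhibitory receptor genes. In an intron of Cd226 the level was 21.3, 16.6 and 16.5 in WT ex vivo, 11.6, 12.6 and 12.7 in stimulated WT, 14.3, 11.3 and 11.3 in Ikzf1-cko ex vivo and 21.4, 18.4 and 15.8 in stimulated Ikzf1-cko Treg (chr18:89379358-89379779). Every stimulated WT library was below, and every stimulated Ikzf1-cko library above, the ex vivo libraries of its genotype (interaction 1.10 ± 0.25; edgeR quasi-likelihood test, Benjamini-Hochberg adjusted p = 0.00513). Of the 16 tested regions nearest to Cd226, 9 passed the adjusted p with a positive interaction and 0 with a negative one, and their median over all 16 was 0.67. For Icos 4 of 12 regions passed, all positive, for Cd28 1 of 11, and for Ctla4, an inhibitory receptor and a neighbor of both, 0 of 14, where 5.92% of all tested regions passed as positive.

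Other listed genes with a positive called region included the following, whereas called regions nearest to the listed genes Tnfsf11, Nfatc1 and Jag1 were negative. The start site of Cxcr6, a chemokine receptor gene, measured 33.3, 31.4 and 27 in WT ex vivo, 13.1, 19.1 and 9.71 in stimulated WT, 20.2, 17.7 and 16.8 in Ikzf1-cko ex vivo and 17.4, 19.2 and 18 in stimulated Ikzf1-cko Treg (chr9:123715340-123715844). WT ex vivo was the highest group and the other 3 overlapped, with an interaction of 1.09 ± 0.23 (edgeR quasi-likelihood test, Benjamini-Hochberg adjusted p = 0.00294). It was the 1 positive region of 47 within 1 kb of a start site. In an intron of Plcg1, a phospholipase downstream of the T cell receptor, the interaction was 1.07, and in an intron of Ifnar2, an interferon receptor subunit gene, it was 1.02. At 243 kb from Btg1, an antiproliferative gene of resting lymphocytes, it was 1.15, and at 238 kb from Nfkbiz, which encodes an NF-kB cofactor, 1.23. At these distances the nearest gene is a label of position and not a known target.

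**Figure D3:**
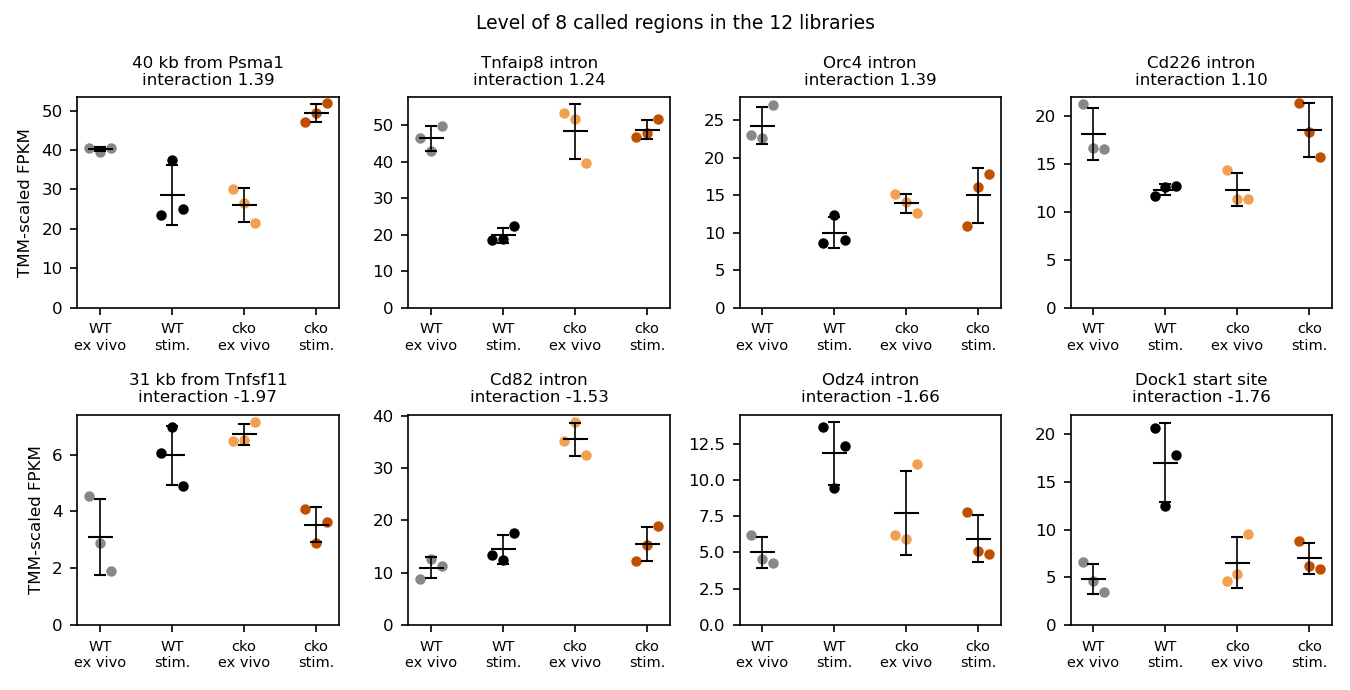
Level of 8 called regions in the 12 libraries (y axis, TMM-scaled FPKM from 0), with points for libraries and bars for the mean and SD of 3. In the upper 4 regions the mean was lower in stimulated than in ex vivo WT and not in Ikzf1-cko Treg, whereas in the lower 4 the mean was higher in stimulated WT, with overlapping libraries at Cd82, and at most 0.12 higher on the log2 scale in stimulated Ikzf1-cko Treg.

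The most negative interaction lay 31.2 kb from Tnfsf11, which encodes the cytokine RANKL (chr14:78674732-78676540). Its level was 4.54, 2.87 and 1.9 in WT ex vivo, 6.04, 6.98 and 4.91 in stimulated WT, 6.48, 6.51 and 7.14 in Ikzf1-cko ex vivo and 4.1, 2.88 and 3.63 in stimulated Ikzf1-cko Treg. It rose on stimulation in WT and fell in Ikzf1-cko, the ranges did not overlap within either genotype, and Ikzf1-cko was above WT ex vivo and below it after stimulation. The interaction was −1.97 ± 0.27 (edgeR quasi-likelihood test, Benjamini-Hochberg adjusted p = 5.76e-05). The counts behind these levels were 31 to 64 reads in WT libraries and 53 to 192 in Ikzf1-cko libraries.

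An intron of Cd82, a tetraspanin gene, measured 8.86, 12.7 and 11.3 in WT ex vivo, 13.3, 12.5 and 17.7 in stimulated WT, 35.1, 38.7 and 32.5 in Ikzf1-cko ex vivo and 12.3, 15.3 and 18.9 in stimulated Ikzf1-cko Treg (chr2:93296753-93297162). Here the Ikzf1-cko ex vivo libraries stood far above all others, which overlapped. The response was 0.36 in WT and −1.18 in Ikzf1-cko (interaction −1.53 ± 0.27; edgeR quasi-likelihood test, Benjamini-Hochberg adjusted p = 0.000629). An intron of Nfatc1, a transcription factor gene induced by T cell receptor signals, gave the same picture (chr18:80881042-80881642). It measured 6.04, 7.79 and 5.89 in WT ex vivo, 8.16, 6.89 and 8.16 in stimulated WT, 22.3, 20.2 and 19 in Ikzf1-cko ex vivo and 9.66, 9.14 and 8.41 in stimulated Ikzf1-cko Treg. Stimulation brought Ikzf1-cko down to levels just above those of WT, with an interaction of −1.41 ± 0.27 (edgeR quasi-likelihood test, Benjamini-Hochberg adjusted p = 0.00122).

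Regions of this form, open in Ikzf1-cko Treg ex vivo and closing on stimulation, were a minority of the negative set. Of the 219 regions, 37 passed the adjusted p as more accessible in Ikzf1-cko ex vivo, 14 of them with a fold over the threshold. The background was 0.379% of all tested regions called more accessible in that comparison, which shares its libraries with the interaction. In the 14, the median genotype difference was 1.32 ex vivo and 0.05 after stimulation. Their nearest genes, chosen for naming after their values were seen, included Nrp2, a semaphorin and VEGF receptor, the adaptor gene Shb, the receptor gene Klrg1, the nucleoside transporter gene Slc28a3 and Cd180, besides Tnfsf11, Cd82 and Nfatc1.

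Ex vivo, 14 of the 219 negative regions were called more accessible in Ikzf1-cko and 0 less accessible. Over all 34257 tested regions these numbers were 130 and 230. The ex vivo difference did not pass the adjusted p at 164 of the 219 regions, for which no share of all tested regions is given. Of the 219, 137 were called less accessible in stimulated Ikzf1-cko than in stimulated WT Treg, a call made at 2.29% of all tested regions. Those among the largest interactions included genes known from nervous system or endodermal development, a description for which no test was made. The start site of Dock1, an activator of Rac, measured 6.56, 4.58 and 3.42 in WT ex vivo, 20.7, 12.5 and 17.8 in stimulated WT, 4.61, 5.38 and 9.6 in Ikzf1-cko ex vivo and 8.85, 6.23 and 5.86 in stimulated Ikzf1-cko Treg (chr7:141861774-141862938). All stimulated WT libraries were above all others, and the interaction was −1.76 ± 0.32 (edgeR quasi-likelihood test, Benjamini-Hochberg adjusted p = 0.000685). At the start site of Foxa2, a forkhead factor of endoderm, the level was 10.8, 5.92 and 8.44 in WT ex vivo, 26.2, 14.6 and 19.5 in stimulated WT, 5.33, 7.2 and 12.7 in Ikzf1-cko ex vivo and 8.72, 6.4 and 4.56 in stimulated Ikzf1-cko Treg (chr2:147871660-147872472). Stimulated WT was again above the rest, and 1 of the Ikzf1-cko ex vivo libraries was nearer to it than the other 2 (interaction −1.65 ± 0.35; edgeR quasi-likelihood test, Benjamini-Hochberg adjusted p = 0.00261).

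Odz4 (Tenm4), a teneurin gene of neural development, was the only gene nearest to 3 or more called regions. All 5 of its tested regions were called, 4 in introns and 1 at a start site, with interactions from −1.66 to −1.04. The most negative of them measured 6.2, 4.55 and 4.25 in WT ex vivo, 13.7, 9.43 and 12.4 in stimulated WT, 6.2, 5.92 and 11.1 in Ikzf1-cko ex vivo and 7.79, 5.11 and 4.89 in stimulated Ikzf1-cko Treg (chr7:103642521-103643692). Stimulated WT libraries were above all WT ex vivo and stimulated Ikzf1-cko libraries, and Ikzf1-cko ex vivo replicate 3 lay within the stimulated WT range. That library was the highest of its group at Dock1, Foxa2 and all 5 Odz4 regions, and without it 144 regions were called in place of 266. Of the 5 Odz4 regions, the start site region lost the adjusted p in 5 of the 12 fits without 1 library, with interactions as small as −0.61, and the weakest intronic one in 6 of them, with interactions as small as −0.68, both without that library. Under DESeq2, 3 of the 5 Odz4 regions did not pass the adjusted p, nor did those at Foxa2, Plxna2 and Gdf6 and the intronic one at Dock1. The other regions among the 12 most negative were at Plxna2, a semaphorin receptor gene (start site, −1.60), Phactr3 (exon, −1.63), Celf4, a neuronal RNA binding protein gene (intron, −1.56), Rnd3 (start site, −1.56), Gdf6 (exon, −1.48), the cadherin gene Cdh4 (intron, −1.47) and Dock1 (intron, −1.46). Ikzf1-cko ex vivo replicate 3 was the highest of its group at each of these other regions too. At Plxna2 it measured 8.70, against 3.75 and 3.01 in replicates 1 and 2, and at Celf4 16.6 against 8.35 and 8.87. Jag1, a Notch ligand gene, had an intronic region with an interaction of −1.05.

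Marker genes of other tissues, a list added after the data were seen, moved in the same direction. The share of reads on untested, weaker regions was also higher in stimulated WT. It was 30.3% to 34.3% there, against 19.2% to 23.2% in WT ex vivo. The marker sums were not set against that rise, so they are not read as particular to these tissues. Summed over the 91 regions nearest to 6 neural marker genes, the level was 444 to 593 CPM in stimulated WT, against 222 to 308 in WT ex vivo, 184 to 259 in Ikzf1-cko ex vivo and 197 to 248 in stimulated Ikzf1-cko Treg. For 95 regions nearest to 6 endothelial markers the ranges were 560 to 675, 308 to 398, 291 to 366 and 287 to 343 in the same order. At the start sites of Sox1, Olig2, Cdh5, Pecam1, Tek and Tie1, defining genes of these lists, there was no region at all. The start sites of the other 4 neural markers held 15 regions, which summed to 119 to 146 CPM in stimulated WT, 96.6 to 117 in WT ex vivo, 96.2 to 110 in Ikzf1-cko ex vivo and 82.2 to 91.2 in stimulated Ikzf1-cko Treg. Those of 4 of 7 fibroblast markers summed to 46.4 to 53.2 CPM in stimulated WT and to at most 41.9 in any library of the other groups. For the other 2 endothelial markers the ranges were 23.1 to 39.4 CPM in stimulated WT and 14.4 to 20.3, 17.7 to 25.7 and 18.2 to 24.2 in the other groups. Fibroblast, epithelial, B cell and myeloid lists were also highest in stimulated WT when all nearest regions were summed. The CD8 or NK cell list was not (216 to 245 CPM in stimulated WT, 258 to 281 in WT ex vivo), nor was the Treg list (1059 to 1292 and 1264 to 1337), and the erythroid list overlapped between groups. Their part in the negative interactions was not tested, and in bulk libraries a few cells of another type and weak signal in all cells cannot be told apart.

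The called regions are described next by position, mean level and sequence, with no test of these shares. Of the 47 positive regions, 28 were in introns (59.6%), 14 intergenic, 4 in exons and 1 at a start site (2.13%). Of the 219 negative regions, 74 were in introns (33.8%), 57 intergenic, 16 in exons and 72 at start sites (32.9%). Over all tested regions, 27.1% were in introns and 37.4% at start sites. The median GC content was 42.4% in positive, 53.0% in negative and 51.5% in all tested regions, and the median length was 591, 1039 and 907 bases. Called regions were weaker than most, with a median of the mean level of 10.4, 8.73 and 12.8 CPM in the same order. Of the negative regions, 59 (26.9%) were among the weakest 20% of tested regions and 0 among the strongest 20%. For the positive regions these numbers were 11 (23.4%) and 2. The part that weak signal has in the calls was not tested.

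The AP-1 sequence TGANTCA was common in the positive set. In the central 300 bases, on either strand, it was found in 24 of 47 positive regions (51.1%), in 22 of 219 negative regions (10.0%) and in 4612 of 34257 tested regions (13.5%). Away from start sites the shares were 23 of 46 (50.0%), 22 of 147 (14.97%) and 3977 of 21445 (18.5%). The Ikaros core GGGAA was found in 41.3% of positive, 65.3% of negative and 59.5% of all tested regions away from start sites, and the STAT sequence in 19.6%, 10.2% and 10.6%. The Tcf/Lef sequence CTTTGAA was in 13.0%, 6.80% and 8.11% of them, the Runx sequence TGTGGTT in 10.9%, 5.44% and 13.2%, the Ets sequence CAGGAAG in 26.1%, 21.1% and 24.04%, and the Klf sequence GGGTGTG in 8.70%, 12.2% and 9.83%. The forkhead sequence TGTTTAC was in 4.35%, 2.72% and 4.91%, part of the CTCF sequence (CCACNAGG) in 2.17%, 8.84% and 8.61%, and the NF-kB sequence in 0%, 2.04% and 1.43%. The windows overlap in sequence content (GGGAA lies within the NF-kB sequence, and Ets and Ikaros sequences can share bases), so the shares are not independent.

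Across all tested regions away from start sites, the 3977 with TGANTCA had a median interaction of 0.14 and the 17468 without it had 0.00. Their median response was −0.19 and −0.05 in WT, and −0.07 and −0.05 in Ikzf1-cko Treg. In stimulated Treg the median genotype difference was 0.13 with and −0.09 without the sequence, against −0.01 and −0.08 ex vivo. Under the 5 other scalings the median interaction was 0.06 to 0.29 with and −0.04 to 0.15 without it, higher with the sequence under each. Regions with it were called with a positive interaction in 0.578% of cases and those without in 0.132%, and with loess on GC content these shares were 0.176% and 0.0630%. The median GC content was 47.0% with and 48.5% without the sequence, and the median of the mean level 10.2 and 9.61 CPM. A match is a stretch of letters and does not show that a factor bound there.

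**Figure D4:**
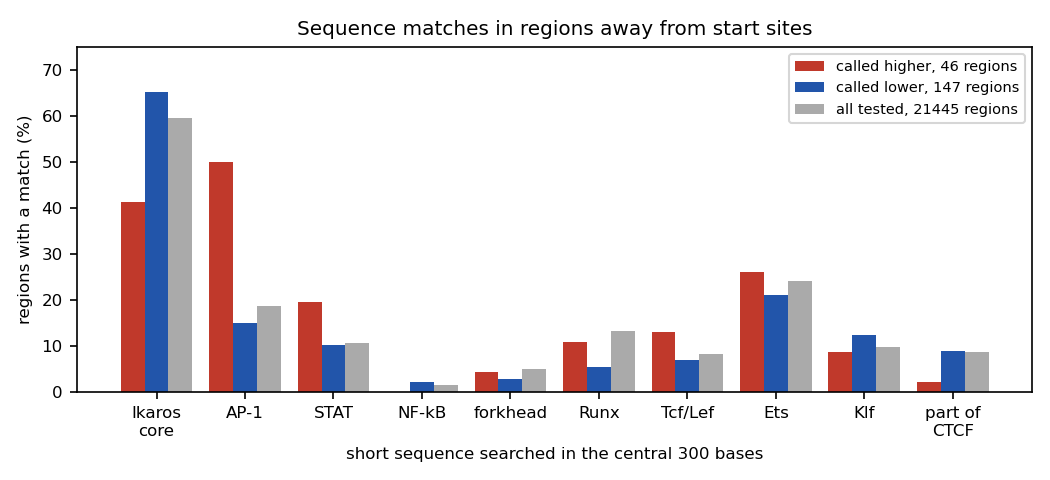
Share of regions away from start sites (y axis, %) that hold each short sequence in the central 300 bases, for regions called with a positive interaction (red, 46), a negative interaction (blue, 147) and all tested regions (gray, 21445). AP-1 sequences were in 50.0%, 14.97% and 18.5% of them.

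In 12 lists of 214 genes of T cell biology, the positive share past the adjusted p was highest for costimulatory and inhibitory receptors. Of 141 tested regions nearest to those genes, 22 passed as positive (15.6%) and 4 as negative (2.84%), against 5.92% and 3.37% of all tested regions, and the median interaction was 0.18 against −0.01. Of the 22 positive ones, 9 were nearest to Cd226 and 4 to Icos, and regions of 1 gene are not independent. No region passed as positive nearest to Tnfrsf9, Tnfrsf18, Cd27, Pdcd1, Lag3, Havcr2 or Ctla4, among others. The 4 negative ones were near Tnfrsf4 at 2 regions (−0.78 and −0.54), Cd6 (−0.997) and Cd5 (−0.68). Under the other scalings 12 to 37 regions of the list passed as positive and 1 to 5 as negative. Genes of the naive state and quiescence had 37 positive (10.1%) and 5 negative (1.37%) of 365 regions. Positive members included 7 regions each near Lef1, Tox and Btg1, and 3 of 10 regions near Il7r, the interleukin 7 receptor gene. Negative members lay near Klf4, Tcf7 and Ccr7, the lymph node homing receptor gene, at −0.70. Under the other scalings the counts for this list were 19 to 78 and 2 to 7.

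Treg core genes had 13 positive (7.98%) and 0 negative of 163 regions, with a median of 0.12. An intronic region 141 kb from the start site of Ikzf2, which encodes Helios, an Ikaros family member expressed in Treg, had an interaction of 0.73 ± 0.15 (edgeR quasi-likelihood test, Benjamini-Hochberg adjusted p = 0.00172). It measured 37.7, 42.4 and 45 in WT ex vivo, 26.2, 21.6 and 23.6 in stimulated WT, 48.4, 50.7 and 46.4 in Ikzf1-cko ex vivo and 45.2, 41.2 and 49.5 in stimulated Ikzf1-cko Treg. Stimulated WT was below every other library. Other regions were near Nt5e, which encodes the ectonucleotidase CD73, at 0.63 and 0.62, and another was at the start site of Capg (0.70). Of regions near Foxp3 0 of 2 passed and near Il2ra, the interleukin 2 receptor alpha gene, 0 of 11. Under the other scalings 7 to 27 regions of the Treg list passed as positive and 0 or 1 as negative.

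Genes of adhesion and homing had 10 positive and 2 negative of 92 regions, T cell receptor signaling genes 15 and 6 of 188, NF-kB factors and inhibitors 8 and 2 of 111, and Th1 and interferon genes 7 and 0 of 100. Early factors induced by the T cell receptor had 7 (3.74%) and 6 (3.21%) of 187. Positive ones among these lay near Egr2 (0.91 and 0.88), Myc (0.75) and Jun, and negative ones near Nfatc1, Nr4a2 (−0.96) and Junb. Cd69 had 1 region in each direction. Cytokine genes had 4 (4.08%) and 5 (5.10%) of 98 regions, Wnt and Notch genes 3 (3.30%) and 6 (6.59%) of 91, and Ikaros family genes 2 (4.00%) and 0 of 50. Activation metabolism genes had 4 (5.41%) and 2 (2.70%) of 74. Of those, the regions with the smallest p were near the glycolytic enzyme gene Pfkp (0.46), the glucose transporter gene Slc2a3 (0.81), Hif1a (0.49) and the kinase gene Pim1 (−0.93).

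**Figure D5:**
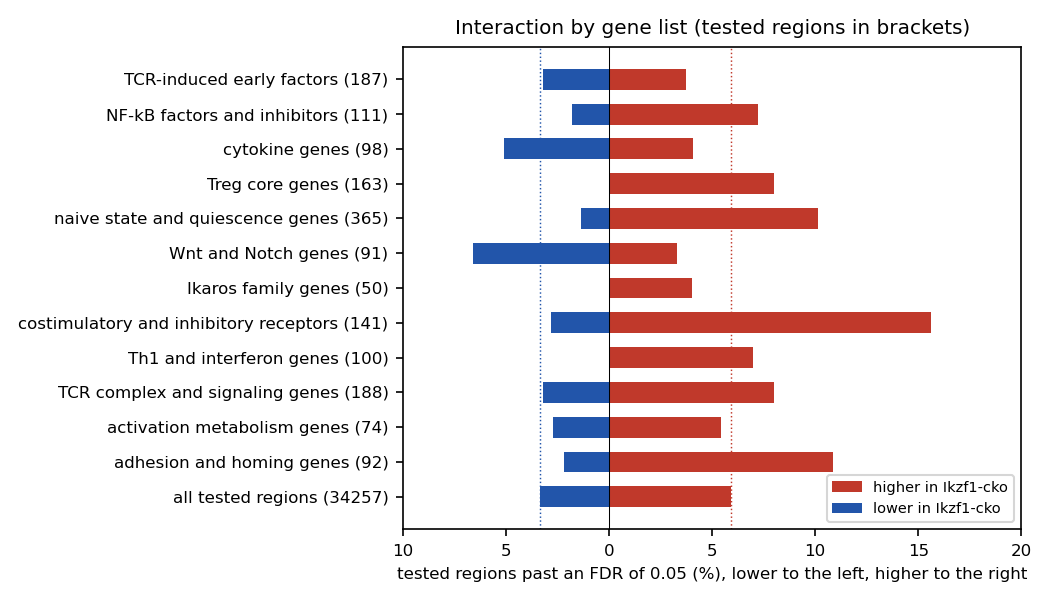
Share of tested regions (x axis, %) nearest to the genes of each list that passed an adjusted p of 0.05 with a positive (red, right) or negative (blue, left) interaction, with dotted lines at the shares of all 34257 tested regions (5.92% and 3.37%). Costimulatory and inhibitory receptors reached 15.6% on the positive side (22 of 141 regions, 9 of them nearest to Cd226).

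Over Ikzf1 itself (chr11:11585006-11672929), 18 regions were tested and 1 passed the adjusted p. Interactions ranged from −0.27 to 0.63 with a median of 0.23, and 3 regions had an unadjusted p under 0.05. The region that passed lies in an intron 25.2 kb from a start site (chr11:11625373-11626914). It measured 44.1, 43.6 and 46.1 in WT ex vivo, 20.5, 24.9 and 19.8 in stimulated WT, 48, 49.5 and 38 in Ikzf1-cko ex vivo and 31.6, 28.8 and 31.9 in stimulated Ikzf1-cko Treg. Stimulation lowered it in both genotypes, by more in WT, with an interaction of 0.47 ± 0.13 (edgeR quasi-likelihood test, Benjamini-Hochberg adjusted p = 0.0159). Without stimulated WT replicate 1, stimulated WT replicate 3 or stimulated Ikzf1-cko replicate 3 it did not pass. All 18 regions had reads in every library of both genotypes, and since the floxed exon is not given in the sources used here, they do not check the deletion.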

How the data were processed

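The data were 12 ATAC-seq libraries of sorted mouse Treg, grouped by their labels, and the genotype by treatment interaction was the main comparison. The simple effects were tested in the same fit, each by its own contrast, and are given as parts of the interaction. Per the methods, alignment was with Bowtie2 in the ENCODE pipeline, and MACS2 peaks outside blacklisted regions that recurred between replicates were merged into 1 set of regions after removal of duplicate reads. For each region and library the authors deposited the raw count and an FPKM value, which equals the count over region length and library total. Coordinates are mm9. A second deposited table of log2 fold change, F score, p-value and FDR from the authors' own comparisons was not used.

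The quasi-likelihood test of edgeR 4.0.16 (R 4.3.3) was run on the counts (glmQLFit, then glmQLFTest, 4 group means over 12 libraries, 29.16 prior degrees of freedom, Benjamini-Hochberg adjustment over all 34257 tested regions), with TMM factors over those regions (0.877 to 0.926 in stimulated WT, 1.01 to 1.07 in the others). The study scaled by background bins, which region counts do not hold. Tested regions had at least 3.6 CPM in all 12 libraries. Counted reads ranged from 4808916 to 15355521. Standard errors are the absolute log2 value over the square root of F. Genes and start sites came from GENCODE for mm9, a region was given to the nearest protein-coding start site, and start site regions lay within 1 kb of one. Of 100 simulated regions with a change of 1.5 on the log2 scale the fit recovered 95, and of 100 with 2 it recovered 100. It called 2 unchanged regions. The simulated counts were drawn from a common mean for each region, with no other differences between groups. Changes near the fold threshold, the shift of reads in stimulated WT and single deviating libraries were not simulated.

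Named regions were the 12 largest interactions in each direction among calls that kept their sign under 4 other scalings, called regions nearest to genes of 12 lists (where a list had none, up to 4 with the smallest p), all regions over Ikzf1, and genes nearest to at least 3 calls. Other names are marked as chosen after their values were seen, or count members of a list. A called region that the rule names is not reported here. The regions, lists and rules were chosen with earlier results of these data known. Alternatives were other scalings, DESeq2 1.42.0, limma 3.58.1, other filters, thinned counts, replicate blocks and fits without each library. Other steps used Python 3.11.15 with pandas 2.3.3, NumPy 2.4.6, SciPy 1.17.1, pysam 0.24.0 and Matplotlib 3.10.9.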

Additional observations from a re-analysis of the deposited data

Results flagged for a closer look

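The regions below are those with the largest difference between the genotypes in the stimulation response, by the test of the interaction itself. On the positive side the interaction (log2) was 1.39 in the intron of 4933406I18Rik near Psma1, 1.39 at Orc4, 1.32 at Mbd2, 1.26 near Cblb, 1.24 at Tnfaip8 and 1.23 far from Nfkbiz. It was 1.18 near Mad2l1, 1.17 in the Yaf2 intron nearest to Gxylt1, 1.16 at Apbb1ip, 1.15 at Slc39a10, 1.15 at Klc1 and 1.15 near Rgs13. On the negative side it was −1.97 near Tnfsf11, −1.76 at the start site of Dock1, −1.66 at Odz4, −1.65 at Foxa2, −1.63 in Phactr3 (nearest start site Sycp2) and −1.60 at Plxna2. It was −1.56 at Celf4, −1.56 at Rnd3, −1.53 at Cd82, −1.48 at Gdf6, −1.47 at Cdh4 and −1.46 in the Dock1 intron nearest to Fam196a. These 24 regions passed the adjusted p in the main fit (edgeR quasi-likelihood test, Benjamini-Hochberg adjustment, largest adjusted p 0.00513) and kept their sign in every other fit that tested them.

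Reads outside the tested regions held a second difference between groups. Of the counted reads, 34.3%, 30.3% and 32.6% fell on regions that were not tested in replicates 1, 2 and 3 of stimulated WT Treg, above the 16.3% to 23.2% of the other 9 libraries. With 3 libraries in a group, single libraries were not examined as outliers.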

How the results depend on the processing

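For the 35 reported called regions that the naming rule chose, the direction of the interaction was the same in every alternative fit that tested them (24 or 25 for each). The adjusted p was lost in 25 of 841 comparisons, of which 19 were at 3 Odz4 regions, and 1 each under DESeq2 at Foxa2, Plxna2, Gdf6 and the Dock1 intron and with thinned counts at Ifnar2 and Jag1. The number of calls was less stable. It was 151 with quantile normalization, 121 and 184 with limma at pseudocounts of 1 and 0.5, 1536 (283 positive, 1253 negative) with the CPM floor in 3 libraries only, 2037 (895 and 1142) with no floor, 14 (3 and 11) with a floor of 10 CPM, 401 (109 positive) with counts thinned to the smallest library and 3183 with no fold threshold. Positive calls numbered 219 with library totals, 71 with loess against abundance, 18 with loess on GC content and 24 with limma, and negative calls 95 with library totals, 116 with quantile normalization, and 97 and 144 with limma. Past the adjusted p alone were 5698 regions with library totals, 1452 with DESeq2, 1717 with the floor of 10 CPM and 1847 with thinned counts. The median interaction was 0.145 with library totals, −0.0194 with either loess against abundance or DESeq2, 0.0013 with loess on GC content, −0.0031 with limma at 0.5, −0.0448, −0.0264 and 0.0154 with the floor in 3 libraries, at 10 CPM and absent, and −0.00085 with thinned counts. With library totals 1239 regions were called in the WT response. The causes of these shifts were not tested, except that other floors change which regions are tested.

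Without 1 library at a time, calls ranged from 144 to 508, positive calls from 33 to 127, negative calls from 111 to 400, regions past the adjusted p alone from 1578 to 3786 and the median interaction from −0.0098 to 0.00063. Calls for the simple effects ranged from 677 to 1044 (WT response), 249 to 302 (Ikzf1-cko response), 324 to 477 (genotypes ex vivo) and 719 to 1241 (genotypes stimulated). Of the 266 regions, 177 kept the adjusted p without each library.

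By the methods, ex vivo and stimulated libraries of 1 genotype may be parts of the same sort, but the labels do not say that libraries with the same replicate number share material. The correlations of their deviations ran from −0.20 to 0.19 over 18 pairs, with 5 over 0.1, and 7 of 12 libraries were closest to their own number. A block for the replicate number gave 271 calls, and a block within genotype gave 250.

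Of the Ikzf1 regions near 0, some changed sign without passing the adjusted p. For a start site region of −0.05 the other sign came at 0.0994 (library totals), 0.0103 (loess on abundance), 0.041 (quantile), 0.0559 (floor in 3 libraries) and 0.222 (no floor), and values without 1 library ran from −0.148 to 0.0447. For the intronic region of 0.08 at 4.7 kb the values without 1 library ran from −0.0849 to 0.24. For the intronic region of 0.08 at 3.3 kb the other sign came at −0.0868 (loess on GC) and −0.218 (thinned counts), and values without 1 library ran from −0.0465 to 0.261. For the intronic region of −0.09 the other sign came at 0.0619 (library totals), 0.0166 (floor in 3 libraries), 0.184 (no floor) and 0.22 (thinned counts), and values without 1 library ran from −0.215 to 0.0483. For that of −0.27 the other sign came at 0.0063 (no floor), and values without 1 library ran from −0.463 to 0.0272. For that of −0.19 the other sign came at 0.0786 (no floor). For that of −0.17 the other sign came at 0.105 (no floor), and values without 1 library ran from −0.384 to 0.102.
These values, and the depth of 4808916 reads in the smallest library, limit what can be said of weak regions.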

Other observations

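Some genes gathered many regions with a modest positive interaction. They were named after their values were seen, as genes nearest to at least 8 regions past the adjusted p in the positive direction, where 5.92% of all tested regions passed. Cd226, described above, was among them. Nearest to Atp10a, a phospholipid flippase gene, 14 of 32 tested regions passed as positive and 0 as negative, with a median interaction of 0.47. For Mdfic the counts were 13 of 26, with a median of 0.63, for Rasa1, which encodes a Ras GTPase activating protein, 11 of 17 with 0.65, and for Rgs1, a regulator of G protein signaling, 10 of 18 with 0.59. Cblb had 10 of 30 with 0.40 and Nrip1 8 of 24 with 0.45. Median responses in WT were −0.38 for Atp10a, −0.40 for Mdfic, −0.38 for Rasa1, −0.47 for Rgs1, −0.64 for Cblb and −0.46 for Nrip1. In Ikzf1-cko Treg they were 0.06, 0.18, 0.14 and 0.11 for the first 4, and −0.20 for Cblb and −0.07 for Nrip1. Regions of 1 gene are neighbors on a chromosome and are not independent of each other.

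On the negative side the genes nearest to 4 or more regions past the adjusted p, where 3.37% of all tested regions passed, were Odz4 and the following. Sash1 had 5 of 6 tested regions, with a median interaction of −0.76, Kdr, the VEGF receptor gene of endothelium, 4 of 6 with −0.77, and Nr2f1, a nuclear receptor of neural development, 4 of 7 with −0.62. Rin2 had 4 of 8 with −0.67, Sh3bp4 4 of 5 with −0.65 and 2900026A02Rik 4 of 4 with −0.76. Rapgef1 had 4 of 13 with −0.32, and St3gal1, with 4 negative and 1 positive of 19, had a median near 0. The median response was 0.34 to 0.69 in WT, except at St3gal1 (−0.04), and in Ikzf1-cko it ran from −0.32 at Sash1 to 0.11 at Rapgef1. The neural and endothelial marker lists, given above for the 4 groups, were highest in stimulated WT too, and their part was not tested.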
